A study of Mus musculus with 6 samples.

Results

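Gpcpd1 hydrolyses glycerophosphocholine, the water-soluble remnant of phosphatidylcholine, and was examined here in muscle of FRG1 transgenic mice together with 8 other enzymes of glycerophosphodiester and choline metabolism (Gde1, Gdpd1, Gdpd3, Gdpd5, Chka, Chkb, Pcyt1a and Chpt1). All probes that the platform annotation, updated through the Entrez gene, assigns to these 9 genes were taken, 20 probes in all. Retention required a detection p, which sets the probe against the array's negative controls, below 0.05 on 3 or more arrays of the 6. This left 17 probes, with at least 1 for each of the 9 genes, among 10287 genes with a retained probe on the whole array. Gpcpd1 was chosen by its lower signal in FRG1 than in WT samples on these same arrays, so that difference is described without a test. The other 8 genes were listed by family and pathway, though with earlier results of these data known. The member probes just inside the detection rule were Chka ILMN_1250008, detected on 4 of the 6 arrays, and Gdpd3 ILMN_2685882 and Chka ILMN_2702540, on 5 each, and the 3 outside it were detected on 0.

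The groups were 3 FRG1 samples (Sample871, Sample873 and Sample874), which carry excess FRG1, a gene of the chromosome region linked to facioscapulohumeral muscular dystrophy, and 3 WT samples (Sample872, Sample906 and Sample923). All 6 mice were C57Bl/6J females aged 4 weeks, and the tissue was the vastus lateralis, a muscle of the thigh. Each sample had 1 Illumina bead array. The labels give no promoter for the transgene, no founder line, and nothing on pooling or litters. The p-values therefore cover the spread among these 6 samples alone, which may be technical.

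Cells break phosphatidylcholine down to glycerophosphocholine by removing both fatty acids, and glycerophosphodiester phosphodiesterases then split the remnant into choline and glycerol-3-phosphate. Choline is used again through the Kennedy pathway, in which choline kinase (Chka, Chkb) makes phosphocholine, Pcyt1a makes CDP-choline in the rate-limiting step, and Chpt1 transfers phosphocholine to diacylglycerol. Both ends of this cycle have been linked to muscle in mice, since loss of Chkb causes a muscular dystrophy and overexpression of a truncated Gpcpd1 in muscle causes atrophy.

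The labelled tissue was checked against 10 genes of the muscle fibre, among them Ckm, Acta1 and Mb, and all 10 had a retained probe. Their summed normalized intensity was 188983 to 194781 in FRG1 samples and 202192 to 213728 in WT samples. The single Frg1 probe was detected on 0 of the 6 arrays and does not check the genotype labels. The arrays had summed signals of 11232852 to 13062182 intensity units in FRG1 samples and 10537335 to 12759000 in WT samples. Correlations of retained probes between samples were 0.990 to 0.993 (Pearson) within FRG1 and 0.982 to 0.991 within WT.

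Gpcpd1 was lower in FRG1 muscle on each of its 4 retained probes, by 2.65 to 3.70 times, and in no probe did a FRG1 sample reach the lowest WT sample. The platform annotation ties the 2 brighter probes to RefSeq transcript NM_028802 and the 2 dimmer ones to NM_001042672. The brightest probe, ILMN_1215852, had raw signals of 1056, 985.6 and 833.7 intensity units in FRG1 Sample871, Sample873 and Sample874, against 3116, 3624 and 2789 in WT Sample872, Sample906 and Sample923. All 3 FRG1 signals were low and the groups did not overlap. After background correction and quantile normalization, the log2 intensity of this probe was 9.79 ± 0.28 in FRG1 muscle and 11.68 ± 0.23 in WT muscle (SD, n = 3 each). The log2 fold change was -1.89 ± 0.17 (SE), where a negative value means lower in FRG1.

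The second probe of the same transcript, ILMN_2601884, had 1147, 1113 and 907.8 intensity units in FRG1 Sample871, Sample873 and Sample874, against 2491, 2961 and 2162 in WT Sample872, Sample906 and Sample923. Its log2 fold change, -1.40 ± 0.18 (SE), was the smallest in size of the 4. On both of these probes the order of the FRG1 samples was the same, with Sample871 highest and Sample874 lowest, and WT Sample906 was the highest WT sample. WT Sample923 had the lowest raw WT signal on both. After normalization WT Sample872 was the lowest WT sample, and it was so on all 4 retained Gpcpd1 probes.

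The dimmer probes gave a like difference at much lower signal. ILMN_2484679 had 96.05, 90.42 and 124.8 intensity units in FRG1 Sample871, Sample873 and Sample874, against 233.4, 302.8 and 250.7 in WT Sample872, Sample906 and Sample923, with a log2 fold change of -1.85 ± 0.20 (SE). ILMN_1251682 had 75.34, 79.44 and 86.64 intensity units in the FRG1 samples and 157.8, 188.2 and 181.9 in the WT samples, in the same order of samples, with a log2 fold change of -1.70 ± 0.16. On these probes FRG1 Sample874 was the highest FRG1 sample, not the lowest. The order of the FRG1 samples thus differed between the brighter and dimmer pairs, though on ILMN_1251682 the FRG1 samples spanned only 0.16 log2 units. The gap between the groups, 0.92 to 1.37 log2 units over the 4 probes, was wider than the range within either group (at most 0.60 in FRG1 and 0.62 in WT).

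Folds of the dim probes depend on how much is added to the signal before the logarithm. With an offset of 50 in place of 16 their log2 fold changes were -1.46 (ILMN_2484679) and -1.23 (ILMN_1251682), and without normalization or background correction the WT over FRG1 ratios of mean signal were 2.53 and 2.19. For the brighter pair these raw ratios were 3.31 and 2.40. The remaining Gpcpd1 probe, ILMN_2483718, also annotated to NM_001042672, was detected on 0 of the 6 arrays (lowest detection p 0.583) and gives no value. Ordered by log2 fold change from the most negative, the 4 probes stood at places 5, 6, 9 and 27 of 19563 retained probes, and by its brightest probe Gpcpd1 was at place 2 of 10287 genes. Low places were to be had from the choice of Gpcpd1 by its lower FRG1 signal, so they are no separate result. The 4 probes share the same samples and are not independent.

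**Figure D1:**
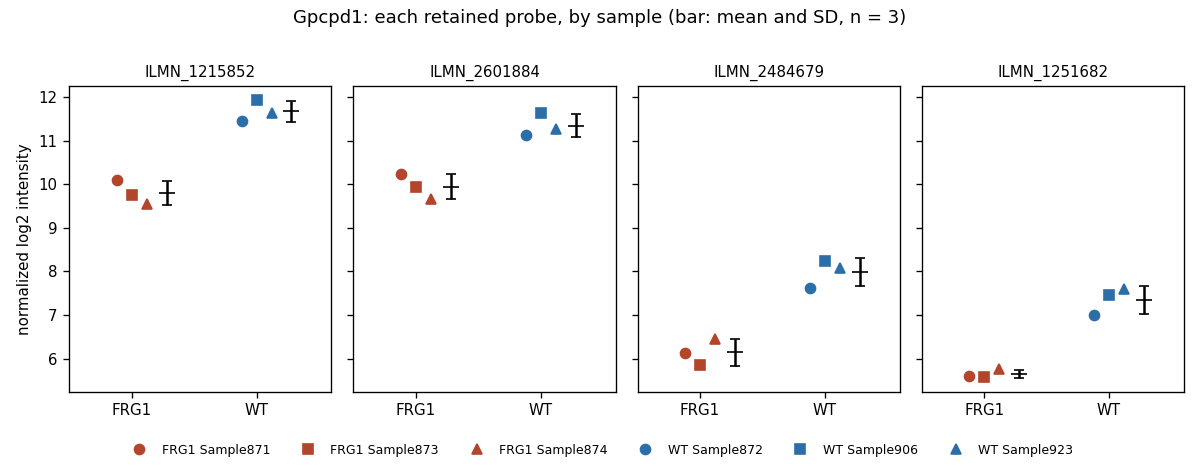
Normalized log2 intensity (y axis) of the 4 retained Gpcpd1 probes in each of the 3 FRG1 and 3 WT samples, with the mean and SD of each group as a bar. In each panel the 3 FRG1 samples lie below the 3 WT samples, by a gap of 0.92 to 1.37 log2 units.

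The nearest patterns to the brightest Gpcpd1 probe were sought among 10042 other named genes, by the root mean square difference of log2 values over the 6 samples after each probe was centred on its own mean. The 5 nearest were Ddah1, which degrades methylated arginines (0.322), the muscle calpain Capn3 (0.336), the co-chaperone Dnaja2 (0.340), Fgfbp1, a binding protein of fibroblast growth factors (0.372), and the homeobox gene Barx2 (0.372). The other 3 Gpcpd1 probes were nearer still, at 0.245 to 0.295. The log2 fold changes of Ddah1, Capn3, Dnaja2 and Barx2 lay between -1.64 and -1.31, with Barx2 detected on 2 of the 3 FRG1 arrays. Fgfbp1 was detected on 0 of the 3 FRG1 arrays and on all 3 WT arrays, which alone retained it, so its FRG1 level is only a bound and its distance and place in this order rest on values not above background. Against that bound, the mean over arrays of the lowest detected signal or its own, Fgfbp1 was at least 2.24-fold lower in FRG1 muscle. With 2 groups of 3 samples, the measure mostly selects genes with a like difference between FRG1 and WT.

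None of the 13 retained probes of the other 8 enzymes passed the threshold of the fit across all retained probes (limma, Benjamini-Hochberg adjusted p under 0.05), where 13.8% of the 19563 retained probes did, 7.1% higher and 6.71% lower in FRG1 (2702 in all, or 1334 without FRG1 Sample871 and 1330 without FRG1 Sample873). The split between higher and lower calls turned with the scaling, with 1189 higher and 1631 lower under median scaling and 1589 higher and 1138 lower under cyclic loess. At an unadjusted p under 0.05 the count was 3 of 13, where 28.5% of all retained probes were under it. These were both probes of Gde1 and ILMN_1250008 of Chka. That Chka probe was retained mainly through its FRG1 arrays, so its place here and among the non-overlapping probes was favoured by the filter. Under other settings up to 3 of 13 passed the adjusted threshold (intensity trend and robust fit), where 2934 of all 19563 retained probes did. The log2 fold changes of the 13 probes ran from -0.43 to 0.51 with a median of -0.14, beside a median of -0.02 over all retained probes. The groups did not overlap in 5 of the 13 (38.5%; the pairs of Gde1 and Chka probes and 1 of Pcyt1a), against 33.7% of all retained probes, a share near the background.

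**Figure D2:**
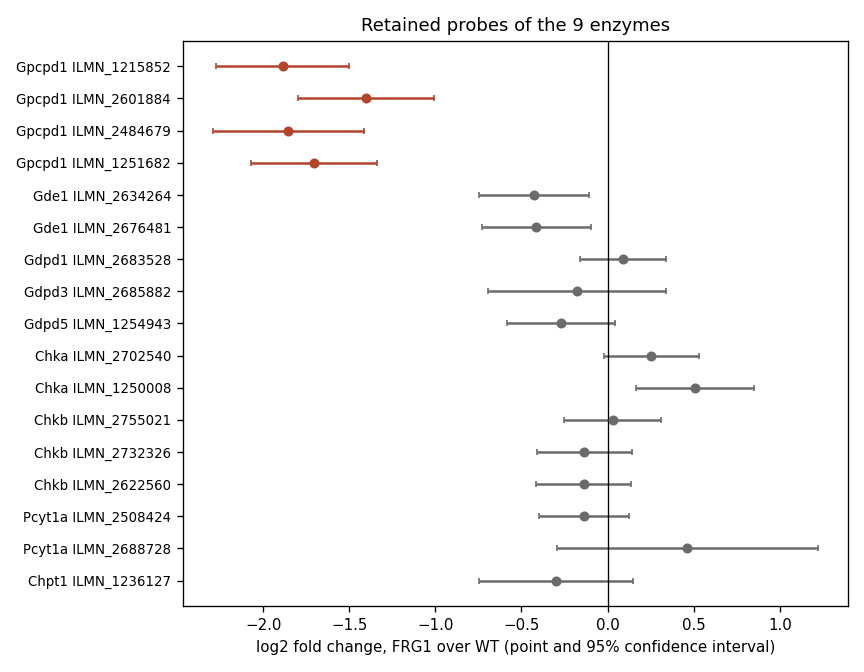
Log2 fold change of FRG1 over WT (x axis) with its 95% confidence interval for the 17 retained probes of the 9 enzymes, 3 samples per group. The 4 Gpcpd1 probes (red) lie between -1.89 and -1.40, while the 13 probes of the other enzymes (grey) lie between -0.43 and 0.51. The Gpcpd1 intervals describe the values by which that gene was chosen and are not a test.

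Among the phosphodiesterases, Gde1, a membrane enzyme that acts on glycerophosphoinositol, had the next lowest values after Gpcpd1. Its probe ILMN_2634264 had log2 intensities of 9.29, 9.36 and 9.54 in FRG1 Sample871, Sample873 and Sample874, against 9.59, 9.98 and 9.91 in WT Sample872, Sample906 and Sample923. Its probe ILMN_2676481 had 9.01, 8.88 and 8.92 in the FRG1 samples and 9.09, 9.43 and 9.53 in the WT samples, in the same order. Every FRG1 value was below every WT value on both probes, and WT Sample872 was the WT sample closest to FRG1. The log2 fold changes were -0.43 ± 0.14 and -0.41 ± 0.14 (SE), neither past the threshold (limma adjusted p = 0.0771 and 0.0828). Without WT Sample872 both passed (limma adjusted p = 0.0408 and 0.0343), and both also passed with median scaling of the arrays (limma adjusted p = 0.0354 and 0.0424) and with an intensity trend and robust fit (0.0414 and 0.0499). Over the 13 alternatives the adjusted p of the probes ran from 0.0354 to 0.233 (ILMN_2634264) and from 0.0343 to 0.229 (ILMN_2676481).

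Gdpd1 and Gdpd3 are related enzymes that cleave lysophospholipids as a lysophospholipase D. Gdpd1 had log2 intensities of 7.89, 7.95 and 7.85 in FRG1 Sample871, Sample873 and Sample874, against 7.78, 7.86 and 7.79 in WT Sample872, Sample906 and Sample923. The groups overlapped, and the log2 fold change of 0.09 had a 95% confidence interval of -0.16 to 0.34 (limma adjusted p = 0.657). Gdpd3 was close to background, with raw signals of 61.47, 62.13 and 67.85 in FRG1 samples and 66.09, 52.3 and 72.26 in WT samples, and was detected on 5 of the 6 arrays. Its WT values spread on both sides of the FRG1 values, and the log2 fold change of -0.18 (limma adjusted p = 0.662) was 0.10 without WT Sample923.

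Gdpd5, a multi-pass membrane phosphodiesterase that cleaves glycosylphosphatidylinositol anchors and also acts on glycerophosphocholine, had log2 intensities of 6.74, 6.41 and 6.72 in FRG1 Sample871, Sample873 and Sample874, against 7.03, 6.73 and 6.92 in WT Sample872, Sample906 and Sample923. The groups overlapped only in that FRG1 Sample871, at 6.74, lay above WT Sample906, at 6.73. The log2 fold change was -0.27 with a 95% confidence interval of -0.58 to 0.05 (limma adjusted p = 0.243).

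Of the 2 choline kinases, neither had a probe past the threshold. Chka was dim, and its probes were detected on all 3 FRG1 arrays but on 2 (ILMN_2702540) and 1 (ILMN_1250008) of the 3 WT arrays. Probe ILMN_1250008 had raw signals of 75.08, 64.62 and 67.28 intensity units in FRG1 Sample871, Sample873 and Sample874, against 51.9, 56.79 and 45.41 in WT Sample872, Sample906 and Sample923. Probe ILMN_2702540 had 61.67, 68.8 and 67.81 in the FRG1 samples and 55.04, 60.33 and 49.78 in the WT samples. All FRG1 signals were above all WT signals on both. The log2 fold changes were 0.51 ± 0.15 and 0.25 ± 0.12 (SE), neither past the threshold (limma adjusted p = 0.0563 and 0.211). The first passed with cyclic loess in place of quantile normalization (limma adjusted p = 0.0494) and with an intensity trend and robust fit (limma adjusted p = 0.0453), and over its 12 alternatives the adjusted p ran from 0.0453 to 0.203. Because ILMN_1250008 was retained mainly through its FRG1 arrays, it was bound to be higher there to some extent, and the offset understates changes at this signal.

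Chkb was well above background on all 6 arrays with 3 probes, and its groups overlapped on each. The brightest, ILMN_2755021, had log2 intensities of 8.78, 8.81 and 8.83 in FRG1 Sample871, Sample873 and Sample874, against 8.70, 8.66 and 8.98 in WT Sample872, Sample906 and Sample923. Its log2 fold change of 0.03 had a 95% confidence interval of -0.26 to 0.31 (limma adjusted p = 0.911). The other 2 probes had log2 fold changes of -0.13 and -0.14, with limits between -0.42 and 0.14 (limma adjusted p = 0.526 and 0.512).

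Pcyt1a was read by 2 probes that differed in a single sample. Probe ILMN_2508424 had log2 intensities of 9.74, 9.72 and 9.71 in FRG1 Sample871, Sample873 and Sample874, against 9.80, 9.99 and 9.79 in WT Sample872, Sample906 and Sample923, with a log2 fold change of -0.14 (limma adjusted p = 0.495) though the groups did not overlap. Probe ILMN_2688728 had raw signals of 672.8, 695.8 and 592.4 in the FRG1 samples and 719.5, 549.9 and 204.8 in the WT samples, in the same order. On the second probe WT Sample923 was far below the other 5 samples, which lay between 549.9 and 719.5, while on the first its 794.5 was close to the range of the others, 837.9 to 990.9. The log2 fold change of ILMN_2688728 was 0.46 with a wide interval of -0.29 to 1.22 (limma adjusted p = 0.413), and it was -0.03 without WT Sample923. The cause of this single low value was not tested.

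Chpt1, the cholinephosphotransferase, had log2 intensities of 8.64, 8.90 and 9.16 in FRG1 Sample871, Sample873 and Sample874, against 8.82, 9.22 and 9.56 in WT Sample872, Sample906 and Sample923, on its retained probe ILMN_1236127. Samples within each group differed by more than the groups did. The log2 fold change was -0.30 ± 0.20 (SE; limma adjusted p = 0.371). The other probes of Chpt1 (ILMN_2696823) and Chka (ILMN_1223847) were detected on 0 of the 6 arrays.

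**Figure D3:**
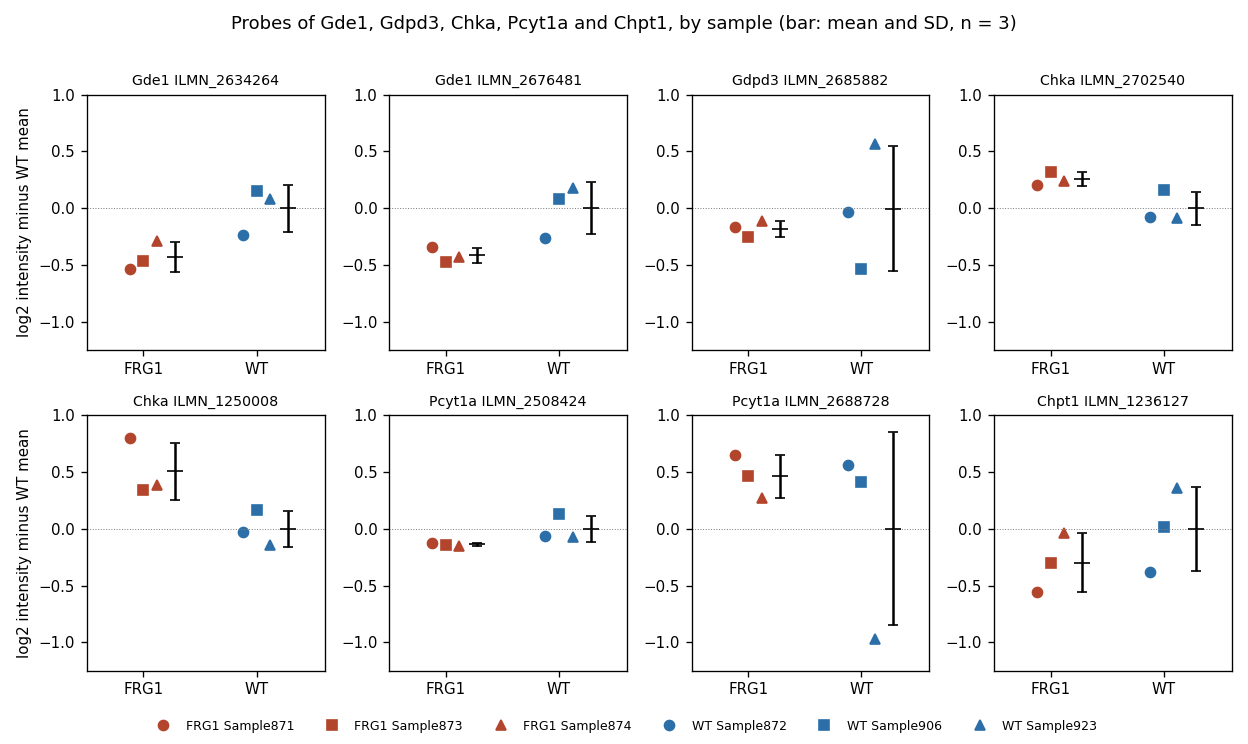
Log2 intensity minus the WT mean (y axis) for 8 probes of Gde1, Gdpd3, Chka, Pcyt1a and Chpt1 in each FRG1 and WT sample, with the mean and SD of each group (n = 3) as a bar. The FRG1 samples lie below the WT samples on both Gde1 probes and above them on both Chka probes, and WT Sample923 is the lone low sample of Pcyt1a ILMN_2688728.

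The wider pathway was read from 75 further genes in 7 lists, which were also chosen with earlier results of these data known. Of the 75 genes, 53 had a retained probe, each represented by its brightest. Of these, 4 were higher and 7 lower in FRG1 muscle by the limma threshold, or 20.8%, where 14.8% of all 10287 genes passed (7.53% higher and 7.23% lower). The median log2 fold change of the 53 genes was -0.02, beside -0.03 over all genes. Without FRG1 Sample871 the count was 6 and without FRG1 Sample873 it was 7. Calls over all 19563 retained probes also fell on these omissions, from 2702 to 1334 and 1330. In 4 genes a dimmer probe passed where the brightest did not, and these are named after their values were seen. Such probes of Pla2g12a and Pnpla8 had log2 fold changes of -0.51 and -0.42 (limma adjusted p = 0.0326 and 0.0342), and those of Samd8 and Lpin2 had 0.45 and 0.75 (limma adjusted p = 0.0368 and 0.0496). That Lpin2 probe was dim (mean log2 intensity 5.37) and was detected on 2 of the 3 WT arrays. The remaining Lpin2 probes had log2 fold changes of 0.29, -0.14 and 0.34, none past the threshold.

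Phospholipases and lysophospholipases include the enzymes that supply glycerophosphocholine or free choline. Of the 11 retained, 1 rose, 2 fell and 8 did not pass (27.3% called, beside 14.8% of all genes). Pnpla7, a lysophospholipase whose product is glycerophosphocholine, had log2 intensities of 6.16, 6.14 and 5.89 in FRG1 Sample871, Sample873 and Sample874, against 6.82, 7.05 and 7.05 in WT Sample872, Sample906 and Sample923. It fell by 0.91 ± 0.13 on the log2 scale (SE; limma adjusted p = 0.00191), and all FRG1 values were below all WT values. Pla2g6, a calcium-independent phospholipase A2, fell by 0.53 ± 0.13 (limma adjusted p = 0.0242), a call lost without FRG1 Sample871 (adjusted p = 0.110), FRG1 Sample873 (0.0806), WT Sample872 (0.0674) or WT Sample906 (0.0667). Pld1, a phospholipase D that releases choline from phosphatidylcholine, rose by 0.62 ± 0.12 (limma adjusted p = 0.0101), a call lost without FRG1 Sample871 (adjusted p = 0.0551).

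Choline transport and oxidation genes gave no call. Of 13 genes in that list 4 had a retained probe, and 0 passed in limma, nor did any have an unadjusted p under 0.05 (0 of 4, where 30.5% of all genes did). The choline transporter-like genes Slc44a2, Slc44a4 and Slc44a1 had log2 fold changes of -0.29, -0.22 and -0.11 (limma adjusted p = 0.220, 0.388 and 0.626). Of the 3 retained Slc44a2 probes 1 had the opposite sign, and with its probes averaged the value was -0.081. Slc44a4 was close to background, detected on 1 of the 3 FRG1 arrays and 2 of the 3 WT arrays. Of the other glycerophosphodiesterases, Gdpd4 had a log2 fold change of -0.35 ± 0.16 (limma adjusted p = 0.189), and Enpp6, a choline-specific phosphodiesterase of glycerophosphocholine, one of 0.06 ± 0.23 (limma adjusted p = 0.895).

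In the list of ethanolamine and serine phospholipid synthesis 2 of 8 retained genes rose and 1 fell (37.5% called, beside 14.8% of all genes). The median log2 fold change of the list was 0.26. Selenoi, an ethanolamine phosphotransferase, rose by 0.54 ± 0.12 (SE; limma adjusted p = 0.0161), a call lost without FRG1 Sample871 (adjusted p = 0.0673) or FRG1 Sample873 (0.0816). Ctps, the CTP synthase that supplies the cytidine nucleotide for CDP-choline, rose by 0.46 ± 0.13 (limma adjusted p = 0.0369) on its brighter probe and had 0.04 ± 0.18 on the other, and that call was lost under 7 of 14 alternatives. Ptdss2, which makes phosphatidylserine from phosphatidylethanolamine, fell by 0.50 ± 0.13 (limma adjusted p = 0.0317), a call lost without FRG1 Sample871 (adjusted p = 0.134), FRG1 Sample874 (0.0884), WT Sample872 (0.0817) or WT Sample906 (0.0564).

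Genes of glycerol-3-phosphate and diacylglycerol metabolism, the other branch that Gpcpd1 feeds, had 0 of 15 higher and 2 lower by the brightest probe (13.3%, near the 14.8% of all genes), and 1 of the 4 Lpin2 probes, a dimmer one, was higher. Lpin1, a phosphatidate phosphatase that makes diacylglycerol, had log2 intensities of 9.91, 9.96 and 10.01 in FRG1 Sample871, Sample873 and Sample874, against 10.57, 10.89 and 10.50 in WT Sample872, Sample906 and Sample923. It fell by 0.69 ± 0.13 on the log2 scale (SE; limma adjusted p = 0.00864). Agpat5, an acyltransferase of lysophosphatidic acid, fell by 0.76 ± 0.13 (limma adjusted p = 0.00413). Both calls held under all 14 alternatives run for them. Agpat3 had a log2 fold change of -0.42 ± 0.14 (limma adjusted p = 0.0670).

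Of the 7 retained genes of lysophospholipid reacylation 1 rose and 1 fell (28.6% called, beside 14.8% of all genes). Mboat1, a lysophospholipid acyltransferase, had log2 intensities of 7.46, 7.77 and 7.96 in FRG1 Sample871, Sample873 and Sample874, against 6.79, 6.64 and 6.80 in WT Sample872, Sample906 and Sample923. It rose 1.99-fold (log2 fold change 0.99 ± 0.15, SE; limma adjusted p = 0.00226) and was the largest increase among the 53 genes. Taz, the tafazzin that remodels cardiolipin, fell by 0.68 ± 0.15 (limma adjusted p = 0.0164), a call lost without FRG1 Sample873 (adjusted p = 0.0802), with no detection filter (0.0572) and with the authors' processed table (0.0534). Lpcat3 had a log2 fold change of -0.18 ± 0.13 (limma adjusted p = 0.393). Of 6 retained sphingomyelin genes 1 fell (16.7% called, near the 14.8% of all genes). This was the neutral sphingomyelinase Smpd2, which fell by 0.62 ± 0.12 (limma adjusted p = 0.00755). Samd8 and Sgms1 had log2 fold changes of -0.28 and -0.16 on their brightest probes (limma adjusted p = 0.256 and 0.560). The second Samd8 probe, ILMN_2647590, was higher in FRG1 (0.45 ± 0.12, limma adjusted p = 0.0368), so the 2 probes of this gene had opposite signs. The 2 retained Sgms1 probes also had opposite signs.

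**Figure D4:**
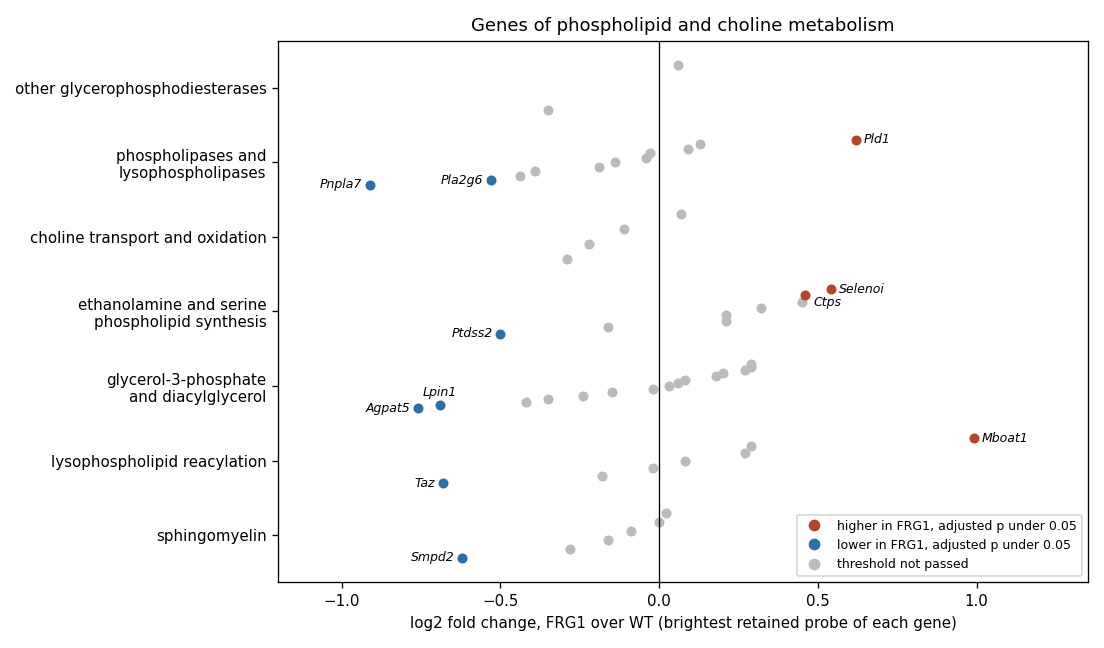
Log2 fold change of FRG1 over WT (x axis) for the brightest retained probe of 53 genes in 7 lists of phospholipid and choline metabolism, 3 samples per group. The 4 genes past the threshold upward are red and the 7 past it downward are blue, and the range of all 53 runs from -0.91 (Pnpla7) to 0.99 (Mboat1).

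Markers of muscle fibres and of other cell types were read beside all genes, of which 14.8% passed in limma (7.53% higher and 7.23% lower in FRG1). An unadjusted p under 0.05 was found for 30.5% of all genes, and for 6 of 6 macrophage, 4 of 7 endothelial and 4 of 6 fibroblast markers. It was found for 2 of 4 Schwann cell, 1 of 5 adipocyte and 2 of 10 muscle fibre markers. In lists this short, a count of 1 or 2 is not read as a change of the cell type. Of 6 retained macrophage markers 5 were higher and 0 lower in FRG1 muscle, and their summed normalized intensity was 2000 to 2591 in FRG1 samples and 1089 to 1211 in WT samples. Of 7 endothelial markers 0 were higher and 2 lower, with sums of 2845 to 3708 in FRG1 and 3711 to 4472 in WT samples. Of 6 fibroblast markers 1 was lower (18929 to 23526 in FRG1 and 22688 to 27105 in WT samples), and of 4 Schwann cell markers 0 passed in limma, and 2 had an unadjusted p under 0.05 (3120 to 5512 in FRG1 and 4926 to 6493 in WT samples), with S100b detected on no array. Of 5 adipocyte markers 1 was higher (465 to 646 in FRG1 and 377 to 572 in WT samples), with Plin1 and Retn detected on no array. Of the 10 muscle fibre genes 2 were lower and 0 higher, with a median log2 fold change of -0.03. The median was 0.94 for macrophage, 0.21 for adipocyte, -0.2 for fibroblast, -0.4 for endothelial and -0.4 for Schwann cell markers. Without 1 of the samples the endothelial count past the limma threshold ran from 0 (without FRG1 Sample871, FRG1 Sample873 or WT Sample872) to 2. The fibroblast count past it ran from 0 (without any FRG1 sample, WT Sample872 or WT Sample906) to 2 (without WT Sample923). The muscle fibre count was 1 on leaving out any sample but WT Sample923. The part of these cell types in the values of the 9 enzymes was not tested, and in whole muscle fewer cells of a type and less RNA per cell cannot be told apart.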

How the data were processed

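Per the file headers, the authors deposited unnormalized signal intensity with detection p-values of 46632 probes on 6 Illumina arrays. A second deposited table holds the authors' processed intensity, on a linear scale with 33.7% to 33.9% of values below 0, and served only as an alternative. The submitters' processing notes name lumi without its settings. The neqc method (limma 3.58.1, R 4.3.3) corrected the background with an offset of 16, deriving the negative controls from detection p, and applied quantile normalization and log2. Retained probes (19563) were fitted with lmFit and eBayes, on group alone, with two-sided p adjusted by Benjamini-Hochberg over all of them.

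Probes were named from the platform annotation, with symbols updated through Entrez genes to RefSeq GRCm38.p6 (29976 probes had 1 symbol, 10 several and 16646 none). The alias Ckb of Chkb also names brain creatine kinase, and the 2 probes of that gene were not taken. Named genes are all probes of the members, the up to 3 genes of smallest p in each pathway list with any gene past the threshold, and the 5 genes nearest to Gpcpd1 in pattern. Members and lists were chosen with earlier results of these data known. The number of arrays limits the precision. Alternatives were the normalization, offset, detection filter, variance model, authors' table, averaging of probes and leaving out each sample.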

Additional observations from a re-analysis of the deposited data

How the results depend on the processing

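The Gpcpd1 probes were lower in FRG1 under every alternative run. Their log2 fold changes with 1 sample left out were -2.04 to -1.76 (ILMN_1215852), -1.54 to -1.26 (ILMN_2601884), -2.03 to -1.71 (ILMN_2484679) and -1.89 to -1.58 (ILMN_1251682). An offset of 50 gave -1.46 for ILMN_2484679 and -1.23 for ILMN_1251682, and the authors' processed table gave -2.10 for ILMN_1251682. Of the 13 other member probes, 1 passed with cyclic loess, 2 with median scaling, 1 with an offset of 50 and 3 with an intensity trend and robust fit, and 0 to 2 with 1 sample left out. These were the probes of Gde1 and ILMN_1250008 of Chka. Over all 19563 retained probes, 2727 passed with cyclic loess and 2820 with median scaling. With an offset of 50 the number was 2899, and with an intensity trend and robust fit it was 2934. Over all retained probes the calls with 1 sample left out numbered 1330 to 2696, with 748 to 1447 higher and 560 to 1249 lower, and over pathway genes 6 to 11, with 1 to 4 higher and 5 to 7 lower. Calls split into 1189 higher and 1631 lower with median scaling and 1589 higher and 1138 lower with cyclic loess. Signs of some values that did not pass turned. With 1 sample left out, Chkb ILMN_2755021 ran from -0.032 to 0.130, Gdpd3 from -0.447 to 0.104, Pcyt1a ILMN_2688728 from -0.025 to 0.747 and Enpp6 from -0.150 to 0.296. Chkb ILMN_2755021 was -0.034 with median scaling, and with a gene's probes averaged Samd8 was 0.082 and Sgms1 0.104. The cause was not tested. No paired analysis was possible because the groups share no replicate number. Signal close to background limits Chka, Gdpd3 and Slc44a4.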
